A study of Homo sapiens with 10 samples.

Results

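CALM2 and CALM3, which encode calmodulin, and SNCB and SNCG, which encode β-synuclein and γ-synuclein, were examined in poly(A) 3′-sequencing of IMR-32 cells, a human neuroblastoma line. The 4 genes were chosen by name among 20033 protein-coding genes, and a peak was assigned to one of them when its summit lay in the annotated gene body or up to 600 bp past its 3′ end. Of 178837 peaks in the list, 13 met this rule. CALM2 had 10 of them, CALM3 had 2, SNCB had 1 and SNCG had none. All cells carried a pLKO.1 shRNA vector delivered by lentivirus and had been selected with puromycin. CDK12 was depleted with sh22 or sh98 and CDK13 with sh701 or sh704, each shRNA in 2 libraries, and the 2 control libraries carried shGFP. That made 4 CDK12, 4 CDK13 and 2 shGFP libraries. The peaks had been called once, on the merged reads of all 10 libraries, and each peak had a single pooled value. CDK12-depleted, CDK13-depleted and control cells could therefore not be compared for these genes, no replicate error was available, and the depth of each library was unknown. The knockdown of CDK12 and CDK13 could not be checked in these values for the same reason.

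Calmodulin is a small calcium sensor that binds and activates kinases, phosphatases, pumps and channels, and the same protein is made from several genes with different untranslated regions. The synucleins are small presynaptic proteins that associate with membranes and synaptic vesicles. The 3′ end of an mRNA is made by cleavage and polyadenylation downstream of a signal hexamer, most often AATAAA, and a gene with several such sites can make mRNAs with short or long 3′ UTRs, a choice known to vary in neurons. In the assay used, reads begin at the junction with the poly(A) tail, so that the 3′ edge of a peak on the strand of its gene lies nearest to the cleavage site.

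The sequences at the 3′ ends of these genes are shown because the position of the signal hexamer against the peak edge and the annotated ends recurs in the results. Each was read from GRCh38 on the strand of the gene, and capitals mark the signal hexamer. In the last line alone, capitals mark the 10 genomic bases just downstream of the peak edge, where a run of A can bind the oligo(dT) primer.
CALM2, signal of the canonical end, chr2:47160083-47160112, minus strand: AATAAAatatggcattggtttctgcttggt
CALM2, upstream signal in the same peak, chr2:47160159-47160188, minus strand: AATAAAaaaattacaatttacccaatggtt
CALM2, at the 3′ edge of the strongest intronic peak, chr2:47174722-47174751, minus strand: AATAAAcgaagggtaaagttttctttaatc
CALM3, proximal 3′ UTR peak, chr19:46609279-46609308, plus strand: GATAAAgcaacaaaagatttgtcccaagct
CALM3, distal 3′ UTR peak, chr19:46610760-46610789, plus strand: AATAAAatacagtgactacctgatttggct
SNCB, only peak, chr5:176620200-176620229, minus strand: AATAAAgctaatctgtctgtagccagagcc
SNCG, annotated end without a peak, chr10:86963237-86963266, plus strand: AATAAAacttgagcccactcctgccatgct
CALM2, A-rich edge in intron 1, chr2:47174256-47174285, minus strand: gagaccctgtctctcaaaaaATAAAAAAAA
The canonical ends of CALM2, CALM3 and SNCG each had AATAAA, and it began 28, 22 and 21 bases upstream of the end. None of the 12 hexamers searched was found within 100 bp upstream of the canonical end of SNCB, and its only AATAAA stood before a more proximal annotated end.

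Peak height is given here as the pileup, the number of overlapping reads at the summit after each read was extended to 100 bp. It was recovered from the fold and the p-value in the list. MACS2, the peak caller, by default keeps 1 read per position and strand. The highest pileup in the list was 200, the ceiling that this sets for both strands together. Reads of 1 strand alone cannot exceed 100. A pileup therefore counts distinct read positions and does not rise in proportion to the number of molecules. The fold in the list is the pileup plus 1 divided by the local background plus 1, so it is smaller than the plain ratio, most of all where the background is low. Intervals on pileups are 95% exact Poisson intervals, and those on shares of reads or peaks are exact Clopper-Pearson intervals. Both cover counting error only. Over the whole list the median pileup was 9 and the 99th percentile was 44. Both calmodulin genes had a peak above that 99th percentile, and SNCB stood below the median.

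**Figure D1:**
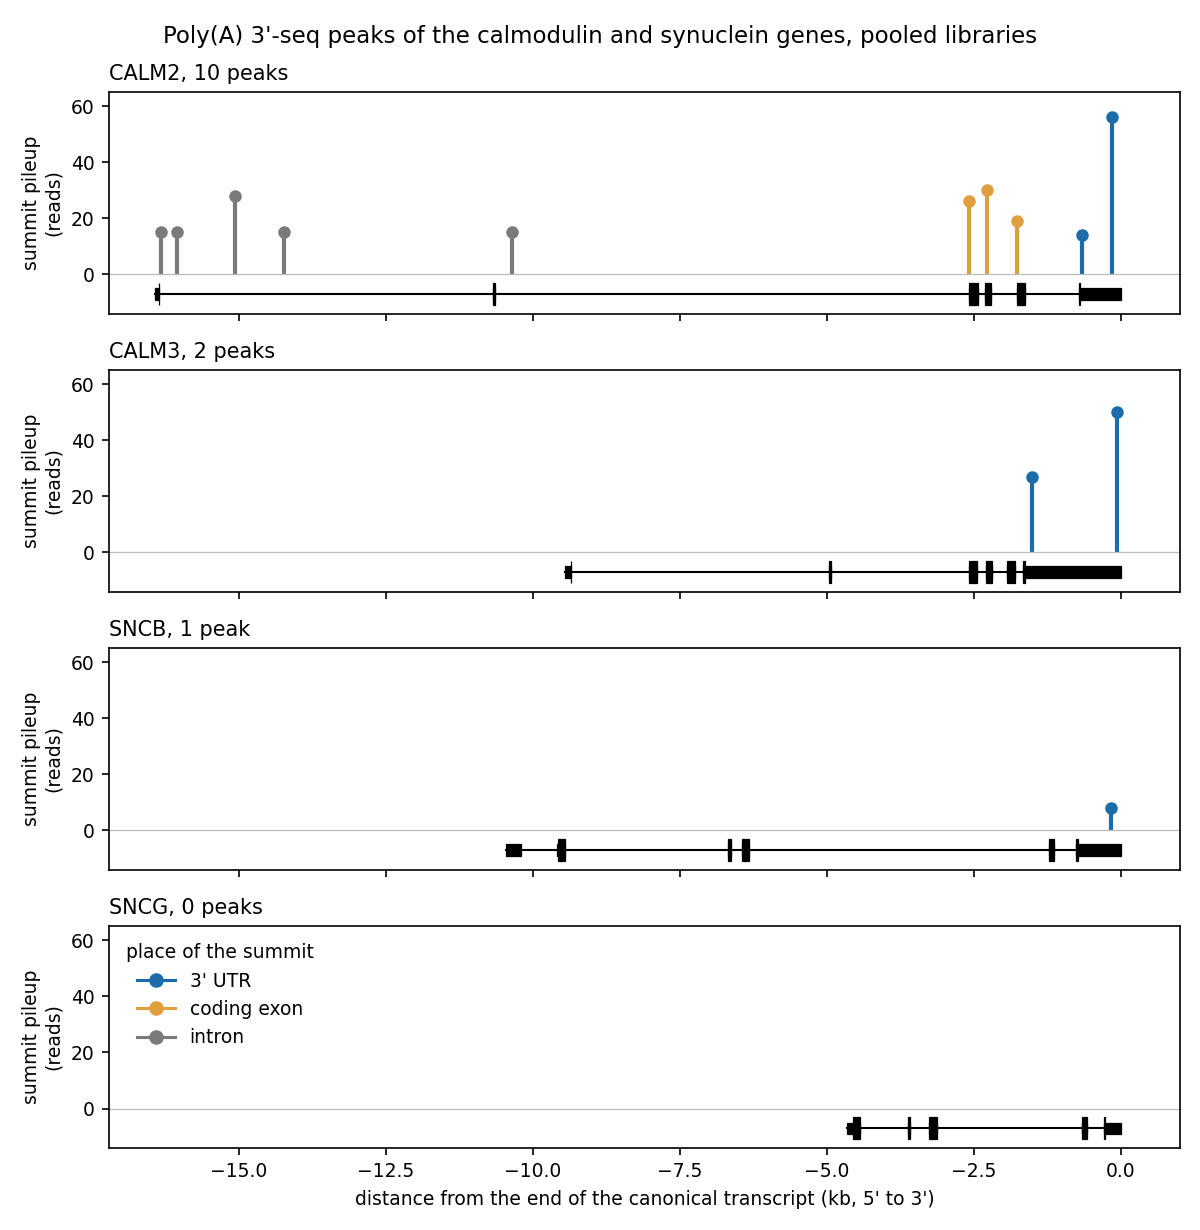
Peaks of CALM2, CALM3, SNCB and SNCG along their canonical transcripts. The x axis is the distance from the transcript end in kb (5′ to 3′), the y axis the summit pileup in reads, thick boxes are coding exons and thin boxes untranslated exons; CALM2 carries 10 peaks from its first intron to its end, with the highest, of 56 reads, 158 bp before the canonical end, CALM3 has 2 in the 3′ UTR, SNCB has 1 of 8 reads and SNCG none.

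CALM2 (ENSG00000143933) lies on the minus strand of chromosome 2 (47160084 to 47176921, 16838 bp), with 6 exons and a canonical 3′ UTR of 692 bp. Its highest peak, at chr2:47159985-47160459 in exon 6, had a pileup of 56 reads (interval 42.3 to 72.7) over a local background of 2.76 reads, with a listed fold of 15.2 and a −log10 q-value of 47.9. This pileup exceeded that of 99% of terminal peaks, defined as peaks whose summit lies at most 200 bp before or 600 bp after the annotated end of a transcript. The peak was 475 bp wide, whereas the median width in the list was 106 bp, and it was wider than 99.6% of the chromosomal peaks.

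This wide CALM2 peak covered 10 annotated transcripts that end at 7 positions, from 437 to 692 bp past the stop codon. It also held both copies of AATAAA found in the 3′ UTR, which begin 588 and 664 bp past the stop codon. The distal copy stood 28 bp before the end of the canonical transcript, and the proximal one stood 8 bp before the end of CALM2-204, with 5 transcript ends in the 20 bp that follow it. The edge of the peak lay 99 bp past the canonical end, and the proximal and distal signals began 203 and 127 bp upstream of that edge, outside the 100 bp searched. The summit, at position 47160242, stood 158 bp before the canonical end and 54 bp before the proximal AATAAA. Reads that begin at a cleavage site on the strand of the gene and are extended by 100 bp reach this summit only from sites between 47160143 and 47160242. That stretch holds 5 of the 7 end positions (47160164 to 47160205, 8 transcripts), and the canonical end and the most proximal end lie outside it. On that strand the 56 reads therefore lay over the cluster of ends around the proximal signal and did not include reads from the canonical end, for which the list gives no height of its own.

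A smaller CALM2 peak stood at the start of the 3′ UTR, at chr2:47160651-47160801. Its pileup was 14 reads (7.65 to 23.5) with a fold of 3.91 and a −log10 q-value of 4.17, the lowest among the 13. The end of CALM2-202, 37 bp past the stop codon, was the only annotated end inside the peak and within reach of its summit. The edge was 125 bp past the stop codon and 49 bp short of the end of CALM2-206, a transcript with a retained intron, and no hexamer was found upstream of it. Read on the plus strand, the other edge had AATAAA 72 bp upstream. The interval matched 3 other places in the genome at 90% identity or more, at up to 97.8%, none of which carried a peak. Each match overlapped the annotated 3′ end of a CALM2 pseudogene and lay mostly past it. The distal peak held 56 of the 70 reads of both 3′ UTR summits, a share of 80% (68.7% to 88.6%), or 4 times the proximal pileup. The summits were 505 bp apart.

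The coding exons of CALM2 also carried peaks. In exon 3 a peak at chr2:47162605-47162733 had 26 reads (17 to 38.1), in exon 4 one at chr2:47162328-47162452 had 30 reads (20.2 to 42.8), and in exon 5 one at chr2:47161788-47161888 had 19 reads (11.4 to 29.7). Each had its edge inside the exon, 86, 42 and 65 bp before the 3′ end of exons of 144, 107 and 136 bp. Of the peak intervals, 58 of 129, 65 of 125 and 71 of 101 bases lay in the exon, and the rest lay in the intron upstream. The extension of reads runs along the genome whether or not the RNA was spliced, so these intronic bases do not show unspliced RNA. The intervals of the 3 pileups overlapped one another, and none of them reached the 56 reads of the terminal peak. For exon 4 the interval overlapped that of the terminal peak (42.3 to 72.7). The exon 4 edge had AATGAA 15 bp upstream, the exon 5 edge had ACTAAA 87 bp upstream and the exon 3 edge had none of the hexamers. Read on the plus strand, the exon 3 peak had AATAAA 29 bp upstream of its other edge and the exon 5 peak had AATATA 47 bp upstream of its own. None of the 3 had an A-rich flank, meaning at least 7 A in the 10 bases downstream.

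Spliced CALM2 sequence is shared with processed pseudogenes, which are intronless copies of an mRNA inserted elsewhere in the genome. The 100 spliced bases ending at the exon 4 edge were identical to CALM2P2 on chromosome 10 (70163826 to 70163925), which lies within SAR1A and carried a peak of 13 reads whose edge was 7 bp past the matching base. CALM2P3 and CALM2P4 matched the same bases at 98% and 91.8% and had no peak. The exon 3 and exon 5 edges each had 4 copies, at up to 97% and 95.9% identity, and none of those carried a peak. Reads that mapped to as many as 20 places had been kept, so the split of such reads between CALM2 and its copies was not known. For the terminal peak of 56 reads no copy of 75 bp or more at this identity was found.

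The remaining 5 CALM2 peaks lay in introns of the canonical transcript, 4 in intron 1 and 1 in intron 2. The strongest, at chr2:47174738-47175203, had 28 reads (18.6 to 40.5), a listed fold of 9.18 and a −log10 q-value of 18.7. It was 466 bp wide, wider than 99.6% of the chromosomal peaks, and its pileup was above that of 99.4% of 94923 intronic peaks. Its edge lay 1773 bp from the start of the canonical transcript and was preceded by AATAAA at 13 and 52 bp, with only 3 A in the 10 bases downstream. The summit, at position 47175147, was 409 bp upstream of that edge, and the first AATAAA in the peak lay 235 bp past it. None of the 12 hexamers was found within 100 bp of the summit on either side, so the 28 reads stood apart from the signals at the edge. Among the edges of the 539 intronic peaks with at least 28 reads, 33.6% had AATAAA and 23.2% (19.8% to 26.9%) had AATAAA without an A-rich flank.

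The other 4 intronic CALM2 peaks each had a pileup of 15 reads (8.4 to 24.7), above 89.1% of intronic peaks. A pair of them lay in sequence that is exonic in another CALM2 transcript, with edges 157 and 421 bp from the start of the canonical transcript. The intronic background leaves out the exons of every transcript, so this pair falls outside its definition. The first of the pair had ACTAAA 25 bp upstream of its edge and the second had no hexamer. The peak in intron 2 had TATAAA 72 bp upstream. The peak at chr2:47174266-47174365 had no hexamer wholly upstream of its edge, although an AATAAA began at the edge itself, 44 bp past the summit, within the A-rich sequence printed above. It had 9 A among the 10 bases downstream, and it was the only one of the 13 with an A-rich flank, a feature of 71.6% of intronic peaks. This last interval had 1 copy elsewhere, in ENTREP2 on chromosome 15, at 90.3% identity. All 10 CALM2 summits also lay inside a readthrough gene annotated on the same strand (ENSG00000273269, 110571 bp), from which CALM2 reads could not be told apart.

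In the full list, the only one compared by gene length, the number of peaks in CALM2 was high for its length. With a −log10 q-value minimum of 20, CALM2 had 1 peak. Only protein-coding genes with a terminal peak entered the comparisons by length. Of 1410 such genes within 20% of its length, 4 (0.284%) had at least 10 peaks, and the median was 4. Among the 84 of these genes with a terminal peak of at least 50 reads the median was 5 and 2 had at least 10. By contrast CALM3 had 2 peaks, whereas its 1026 neighbours in length had a median of 3, and 78.8% of these had no fewer peaks than CALM3. SNCB had 1 peak against a median of 3 over 1073 genes, and SNCG had none against a median of 2 over 589 genes. Since every gene compared had a terminal peak, SNCB could not exceed any of them and SNCG had to fall below them.

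Terminal windows depended on which transcripts were used. By all transcripts 4 CALM2 peaks were terminal, and the peak of 56 reads held 47.1% (37.8% to 56.4%) of their 119 reads, followed by exon 4 with 25.2%, exon 5 with 16% and the proximal 3′ UTR peak with 11.8%. The exon 4 and exon 5 peaks counted as terminal only through CALM2-208 and CALM2-207, whose 3′ ends are annotated as incomplete. With transcripts of complete 3′ end alone, 2 CALM2 peaks were terminal, both in the 3′ UTR. Of the 11 annotated end positions of CALM2, 8 fell inside a peak.

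**Figure D2:**
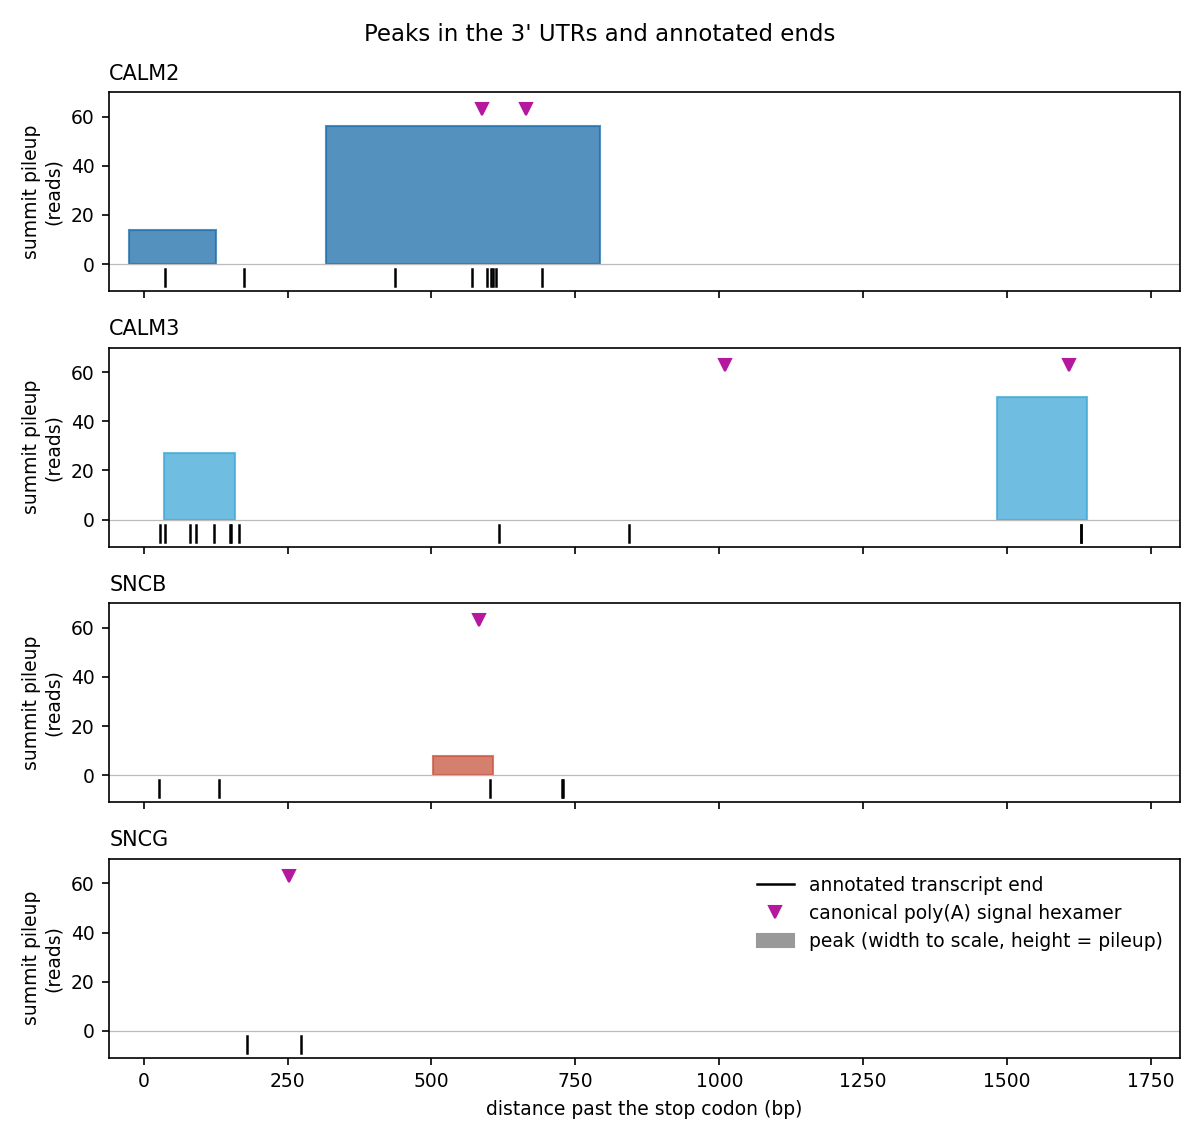
Peaks in the 3′ UTRs of the 4 genes. The x axis is the distance past the stop codon in bp, box widths are the peak intervals to scale, box heights are summit pileups in reads, ticks are annotated transcript ends and triangles are copies of AATAAA; the 56-read CALM2 box covers both its signals, CALM3 has boxes at both extremes of its 3′ UTR and none between, and the SNCB box stops before the canonical end at 729 bp.

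CALM3 (ENSG00000160014), on the plus strand of chromosome 19 (46601074 to 46610782, 9709 bp), has 6 exons and a 3′ UTR of 1629 bp, longer than that of CALM2. Both of its peaks lay in the 3′ UTR, near the stop codon and at the canonical end. The proximal peak, at chr19:46609189-46609310, had 27 reads (17.8 to 39.3), and the distal peak, at chr19:46610636-46610791, had 50 reads (37.1 to 65.9). The distal site therefore held 64.9% (53.2% to 75.5%) of the 77 reads of both summits, an interval above an equal split, and its pileup was 1.85 times the proximal one.

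The proximal CALM3 edge fell 157 bp past the stop codon, 5 bp past the end of CALM3-202, and the peak covered 6 end positions of 7 transcripts. It had GATAAA 31 bp upstream, a less common hexamer, and 2 A in the 10 bases downstream. The distal edge fell 1638 bp past the stop codon, 9 bp past the canonical end, with AATAAA 31 bp upstream and no A in the 10 bases downstream. A second AATAAA, 1010 bp past the stop codon, lay in no peak, and the nearest annotated ends were 843 and 1628 bp past the stop codon. Ends annotated 617 and 843 bp past the stop codon were likewise without a peak.

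The 2 CALM3 sites were 1433 bp apart, against a median of 729 bp for the 3861 genes with exactly 2 peaks in the 3′ UTR. Of those genes, 75.3% had sites closer together and 78.1% had a smaller distal share. The median distal share was 52.5%, and 80% of genes fell between the 10th percentile of 31.6% and the 90th of 71.7%, a range that holds the CALM3 value. The CALM2 distal share of 80% exceeded that of 98.3% of these genes, but with a −log10 q-value minimum of 5 its proximal peak (4.17) is left out and no such share can be formed. Its distance of 505 bp exceeded that of 32.8%. The intervals of the distal shares of CALM2 and CALM3 overlapped.

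An antisense lncRNA (ENSG00000269292, chr19:46609277-46610779, minus strand) spans most of the CALM3 3′ UTR and contains both summits. The list gives no strand. The 3′ end of the lncRNA is 1 bp from the proximal summit, and the edge of that peak on the minus strand would lie 88 bp past it. No hexamer was found on the minus strand at either peak. Reads of CALM3 and of the lncRNA could thus not be told apart, although on the plus strand both edges lay within 9 bp of an annotated CALM3 end. For the distal peak 1 copy of its last 100 bases was found, on chromosome 7 (46964211 to 46964311, 90.1% identity), without a peak.

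SNCB (ENSG00000074317), on the minus strand of chromosome 5 (176620082 to 176630556, 10475 bp), had a single peak at chr5:176620206-176620309 in the 3′ UTR. Its pileup was 8 reads (3.45 to 15.8), lower than in all 12 calmodulin peaks, and its local background was 0.24 reads, with a listed fold of 7.26 and a −log10 q-value of 8.48. Of the 22867 terminal peaks used as background, 12.6% had fewer reads. The edge lay 4 bp past the end of SNCB-206 and 124 bp before the canonical end of SNCB-202. AATAAA began 23 bp upstream of the edge, and 3 of the 10 bases downstream were A.

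The canonical end of SNCB was not covered by a peak, and of the 6 annotated end positions 1 fell inside the peak. The 729-bp 3′ UTR thus showed a site 605 bp past the stop codon, at the signal printed above, and none at its end. No copy of the peak sequence was found elsewhere. The next peak past the gene lay 2676 bp downstream and had 6 reads. The list holds no peak with a pileup under 3. Reads at the canonical end from fewer distinct positions than that, however many, were therefore not detectable.

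SNCG (ENSG00000173267), on the plus strand of chromosome 10 (86958599 to 86963258, 4660 bp), had no peak in its body or in the 600 bp past its end, and the next one downstream lay 46906 bp away. The gene has 3 annotated end positions, a 3′ UTR of 273 bp and an AATAAA 252 bp past the stop codon. It lies inside MMRN2, a gene of the opposite strand that had 2 peaks, none of them within SNCG. No copy of its last exon was found elsewhere. The lowest pileup of any peak in the list was 3 reads, and it was also the lowest at the smallest background of 0.215 reads. Reads at SNCG from up to 2 distinct overlapping positions, however many, would therefore have left no peak. A gene without a peak was common, at 4561 of 20033 protein-coding genes (22.8%).

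Over the 13 peaks, 8 (61.5%, 31.6% to 86.1%) had at least 1 of the 12 hexamers (AATAAA or any of 10 weaker variants and ATTAAA) in the 100 bp upstream of the edge on the strand of the gene. The share was 78.6% among the 22867 terminal and 49% among the 94923 intronic background peaks, all in places with genes on 1 strand only. AATAAA itself was found within that distance at 3 of the 13, namely at the edges of the strongest CALM2 intronic peak, the distal CALM3 peak and the SNCB peak. It was found at 46% of the terminal and 16.4% of the intronic background peaks. With the whole CALM2 terminal peak searched, 9 of the 13 had a hexamer. When the search covered the 100 bp upstream of each summit, 2 of the 13 (15.4%) had one. That search misses signals past the summit. AATAAA began 54, 49 and 29 bp past the summits of the terminal CALM2, distal CALM3 and SNCB peaks. The A-rich flank seen at 1 of 13 (7.69%, 0.195% to 36%) was found at 22.9% of the terminal background peaks. None of the 13 had, within 50 bp downstream, 25 consecutive bases of which no more than 3 were not A. Such a stretch followed 2.06% of the terminal and 8.86% of the intronic background peaks. The intervals are wide, and peaks of 1 gene are not independent, so these shares are a description.

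The strongest terminal site of each gene was then set against the 13762 protein-coding genes with a terminal peak, whose median was 23 reads. CALM2, at 56 reads, was above 96.8% of them, CALM3, at 50 reads, above 94.1%, and SNCB, at 8 reads, above 5.91%. The counting intervals of CALM2 (42.3 to 72.7) and CALM3 (37.1 to 65.9) overlapped, whereas that of SNCB (3.45 to 15.8) was separate from both. By the listed fold, with 1 added to pileup and background, the calmodulin genes changed places, with 24.9 for CALM3 and 15.2 for CALM2. The local background of the CALM3 peak was 1.05 reads and that of the CALM2 peak 2.76 reads. By this measure CALM3 was above 98.8% of genes and CALM2 above 76.8%.

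Proteins that act with the products of these genes gave the setting. Of 27 calmodulin partners, such as kinases, calcineurin subunits, calcium pumps and calmodulin-binding neuronal proteins, 24 had a terminal peak (68.7% of all protein-coding genes had one), with a median of 29.5 reads and a range from 8 to 55, and 16 (66.7%) had at least 2. The highest were MARCKS, a membrane-bound calmodulin-binding substrate of protein kinase C, at 55 reads, CALD1 (caldesmon) at 46 and the transcription activator CAMTA1 at 46. PCP4 and PDE1B had no peak. All 24 were below CALM2 and 23 were below CALM3, with MARCKS the exception, and none was below SNCB.

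Of 27 synaptic vesicle genes, 24 had a terminal peak, against the same 68.7% of all protein-coding genes, with a median of 26 reads and a range from 13 to 41, and 15 (62.5%) had at least 2. Among the highest, the vesicle chaperone DNAJC5 had 40 reads and the calcium sensor SYT1 had 39. SNCB at 8 reads was lower than each of the 24, and the remaining 3 genes had peaks but no terminal one, while SNCG had no peak of any kind. Among all protein-coding genes with a terminal peak, 57.9% had at least 2.

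**Figure D3:**
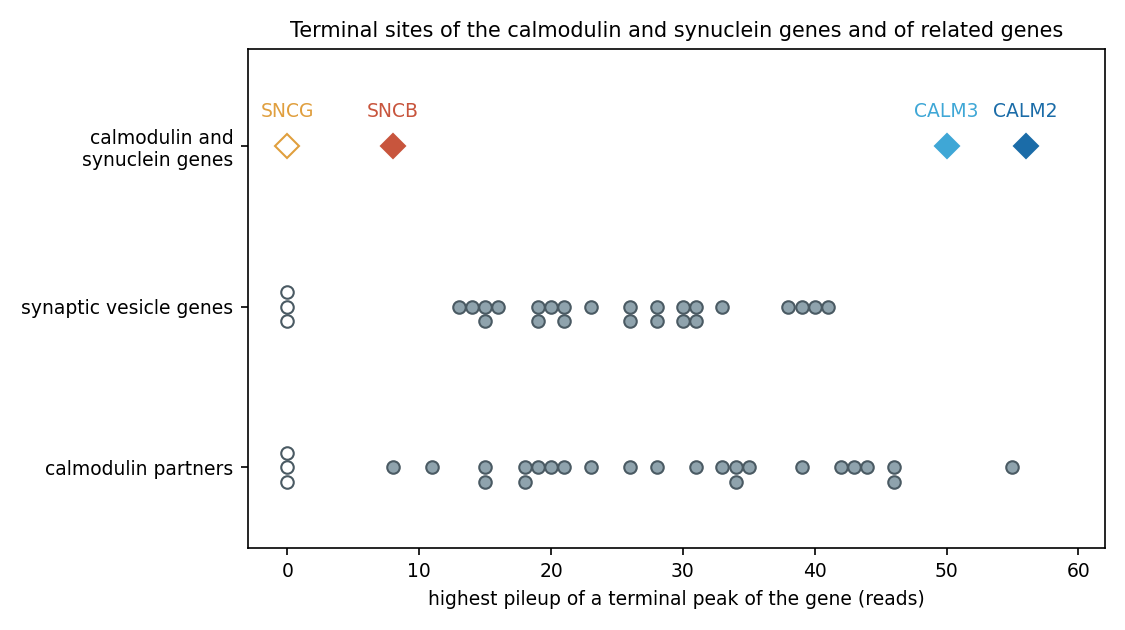
Highest terminal pileup of the calmodulin and synuclein genes and of 27 calmodulin partners and 27 synaptic vesicle genes. The x axis is the pileup in reads, each point is a gene and open symbols at 0 have no terminal peak; CALM2 and CALM3 lie above all 24 vesicle genes with a terminal peak, and SNCB lies below them.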

How the data were processed

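Single-end 100 bp reads of QuantSeq 3′ mRNA REV libraries (poly(A) RNA, 10 libraries) had been trimmed and mapped by the authors to GRCh38 with STAR 2.5.1b, keeping reads with up to 20 positions. The study's methods describe the knockdown libraries as processed in separate batches and downsampled to the smallest library before merging. Peaks were then called on the merged reads with MACS2 2.1.1. For each peak the deposited list gives a score, a ratio (the fold, which is the summit pileup plus 1 over the local background plus 1), and a p-value and a q-value as −log10, all set by the authors. Library depth is unknown and no strand is given, so batches, groups and replicates were not compared, and no test across genes was made.

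From these values the summit pileup was computed as the whole number that fitted fold and p-value together (largest misfit 0.000168 in −log10 p). The median misfit of the next best pileup was 0.078. Summits (start plus offset) were placed on GENCODE 44, whereas the study used an earlier release. Copies were sought with BLAST 2.17.0 at 90% identity or more over at least 75 bp. The work was done in Python 3.11.15, with scipy 1.17.1 and numpy 2.4.6 for statistics, pandas 2.3.3 for tables and matplotlib 3.10.9 for plots.

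The genes named were the 4 calmodulin and synuclein genes, genes that overlap them or share near-identical sequence with their sites, and from each list of 27 related genes the 3 with the highest terminal pileup and up to 5 without a peak, of which 1 gene is not reported here. The individual peaks described were the terminal and 3′ UTR ones and the strongest of the others; the rest are summarised or were named after their values were seen. The genes and lists were chosen with earlier results of these data known. Alternatives changed the q-value minimum, gene and terminal windows, transcripts, merging of peaks, motif and A-rich rules, and the measure of height. Other members of these gene families, protein sequences and other processed files of the samples were not used here.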

Additional observations from a re-analysis of the deposited data

How the results depend on the processing

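Of 83 alternatives over 16 results, 60 stayed within the counting interval of the reported value or, for counts, near it, and 23 moved. Some of the 60 could not have moved. Stricter settings cannot change a count of 0 at SNCG, and the single SNCB peak always holds 100% of its terminal reads. When peaks under a −log10 q-value of 20 were left out, CALM2 had 1 peak, it was terminal, and it held 100% of terminal reads, SNCB had 0 peaks and 0 terminal peaks, its share had no value, and the A-rich share was 0%. CALM3 had 2 peaks under each setting. With the canonical transcript alone, CALM2 and CALM3 had 1 terminal peak each, and with complete 3′ ends only, an alternative chosen after seeing the data, CALM2 had 2. Counting 3′ UTR peaks alone raised the share of the strongest CALM2 site from 47.1% to 80%. The share of peaks with a hexamer, 61.5%, was 15.4% when searched upstream of the summit, which misses signals past it. It was 23.1% for AATAAA and ATTAAA alone, and 69.2% over the whole peak, also chosen after seeing the data. The A-rich share of 7.69% was 0% from the summit and 0% by the 25-base stretch, and 15.4% with at least 6 A in 10 bases. By fold, −log10 q-value, or over all protein-coding genes, the percentage of genes below was 76.8%, 93.6% and 97.8% for CALM2, 98.8%, 97.7% and 96% for CALM3, and 14.5%, 12% and 35.4% for SNCB. SNCG had 0 peaks under each alternative run. No paired analysis was possible because each peak has 1 value over all libraries, and for the same reason no replicate could be left out. Pileups count distinct positions and level off, so ratios between sites can understate unequal use where many molecules share a position.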
